A study of Arabidopsis thaliana with 12 samples.

Results

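AGAMOUS (AG, AT4G18960), SHATTERPROOF 1 and 2 (SHP1, AT3G58780, and SHP2, AT2G42830), SEEDSTICK (STK, AT4G09960), APETALA3 (AP3, AT3G54340) and PISTILLATA (PI, AT5G20240) are MADS-box genes of Arabidopsis flower and fruit development. These 6 genes were taken by their TAIR10 locus identifiers out of 27444 protein-coding genes on the 5 nuclear chromosomes, and no measured value entered the rule. At each of them the trimethylation of lysine 27 on histone H3 (H3K27me3) was described in 14-day-old seedlings of the val1val2 double mutant and of Col-0 wild type (WT), together with the sites of the GFP-tagged repressors VAL1 and VAL2 in the gene and within 2 kb to each side.

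The double mutant carries mutations in both VAL1 and VAL2, and the binding data came from VAL1-GFP in the val1 mutant and VAL2-GFP in the val2 mutant, all in the Col-0 ecotype. The labels give neither the promoters of the tagged genes nor the number of transgenic lines. All seedlings grew on sugar-containing medium in cycles of 16 h light and 8 h dark at 22 °C. Chromatin immunoprecipitation with sequencing gave 2 H3K27me3 peak lists for each genotype, 2 lists of VAL1-GFP peaks and 1 of VAL2-GFP peaks, the 7 lists analysed of 12 samples that also include 1 input per line. Whether the 2 replicates were grown as separate plants is not in the labels, and their spread may be technical. Peak lists hold no expression values, so the labelled tissue could not be checked against marker genes.

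AG specifies stamens and carpels and ends the growth of the floral meristem. SHP1, SHP2 and STK are its closest relatives, which act in fruit valve margins and ovules, and AP3 and PI form a dimer that specifies petals and stamens. In leaves and young seedlings these genes are largely silent, and Polycomb repressive complex 2, which deposits H3K27me3, is known to keep AG and its relatives off there. VAL1 and VAL2 carry a B3 domain that recognises the RY element, and both are known to bring Polycomb proteins to seed genes and to FLC.

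There were 9925 and 10024 H3K27me3 peaks in val1val2, covering 19.2 and 19.3 Mb, and 8324 and 8325 in WT, covering 17.5 and 17.8 Mb. VAL1-GFP had 21580 and 34554 summits in its lists and VAL2-GFP had 30493. Read depth is unknown, because the lists give no totals. With 2 libraries against 2, the smallest p of an exact two-sided permutation test is 0.333, so differences are given as values, with the share of all genes that differ in the same way.

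All 6 genes carried H3K27me3 in seedlings of both genotypes. The call for a marked gene asked that its peaks together span 20% or more of the gene's length in that library. By that rule 30.4% of all genes were marked in both val1val2 lists, 25.6% in both WT lists and 23.0% in all 4 lists, and the 6 genes were among them each time. None of the 6 was lost, which means marked in both WT lists and in neither val1val2 list, against 7.92% of the 7023 genes marked in WT. None could be gained, since all were marked in WT (8.82% of the 19988 genes unmarked in WT were gained). The differences between the genotypes lay in how far the domains reached and in measures of peak strength, both described below.

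Cover of the gene body was lower in val1val2 at SHP1 and STK, with no overlap between the 2 libraries of each genotype, and 22.0% of the 6316 genes marked in all 4 lists were lower in this way. It was higher in val1val2 at AG, SHP2, AP3 and PI, against 32.4% of those genes, by between 1.10 and 3.83 percentage points. Only STK was lower by 20 points or more, as were 6.51% of those genes. The median difference was 1.33 points over the 6 genes and 0 over the 6316. The widest differences lay in the 3′ part of STK, upstream of PI and upstream of SHP2.

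**Figure D1:**
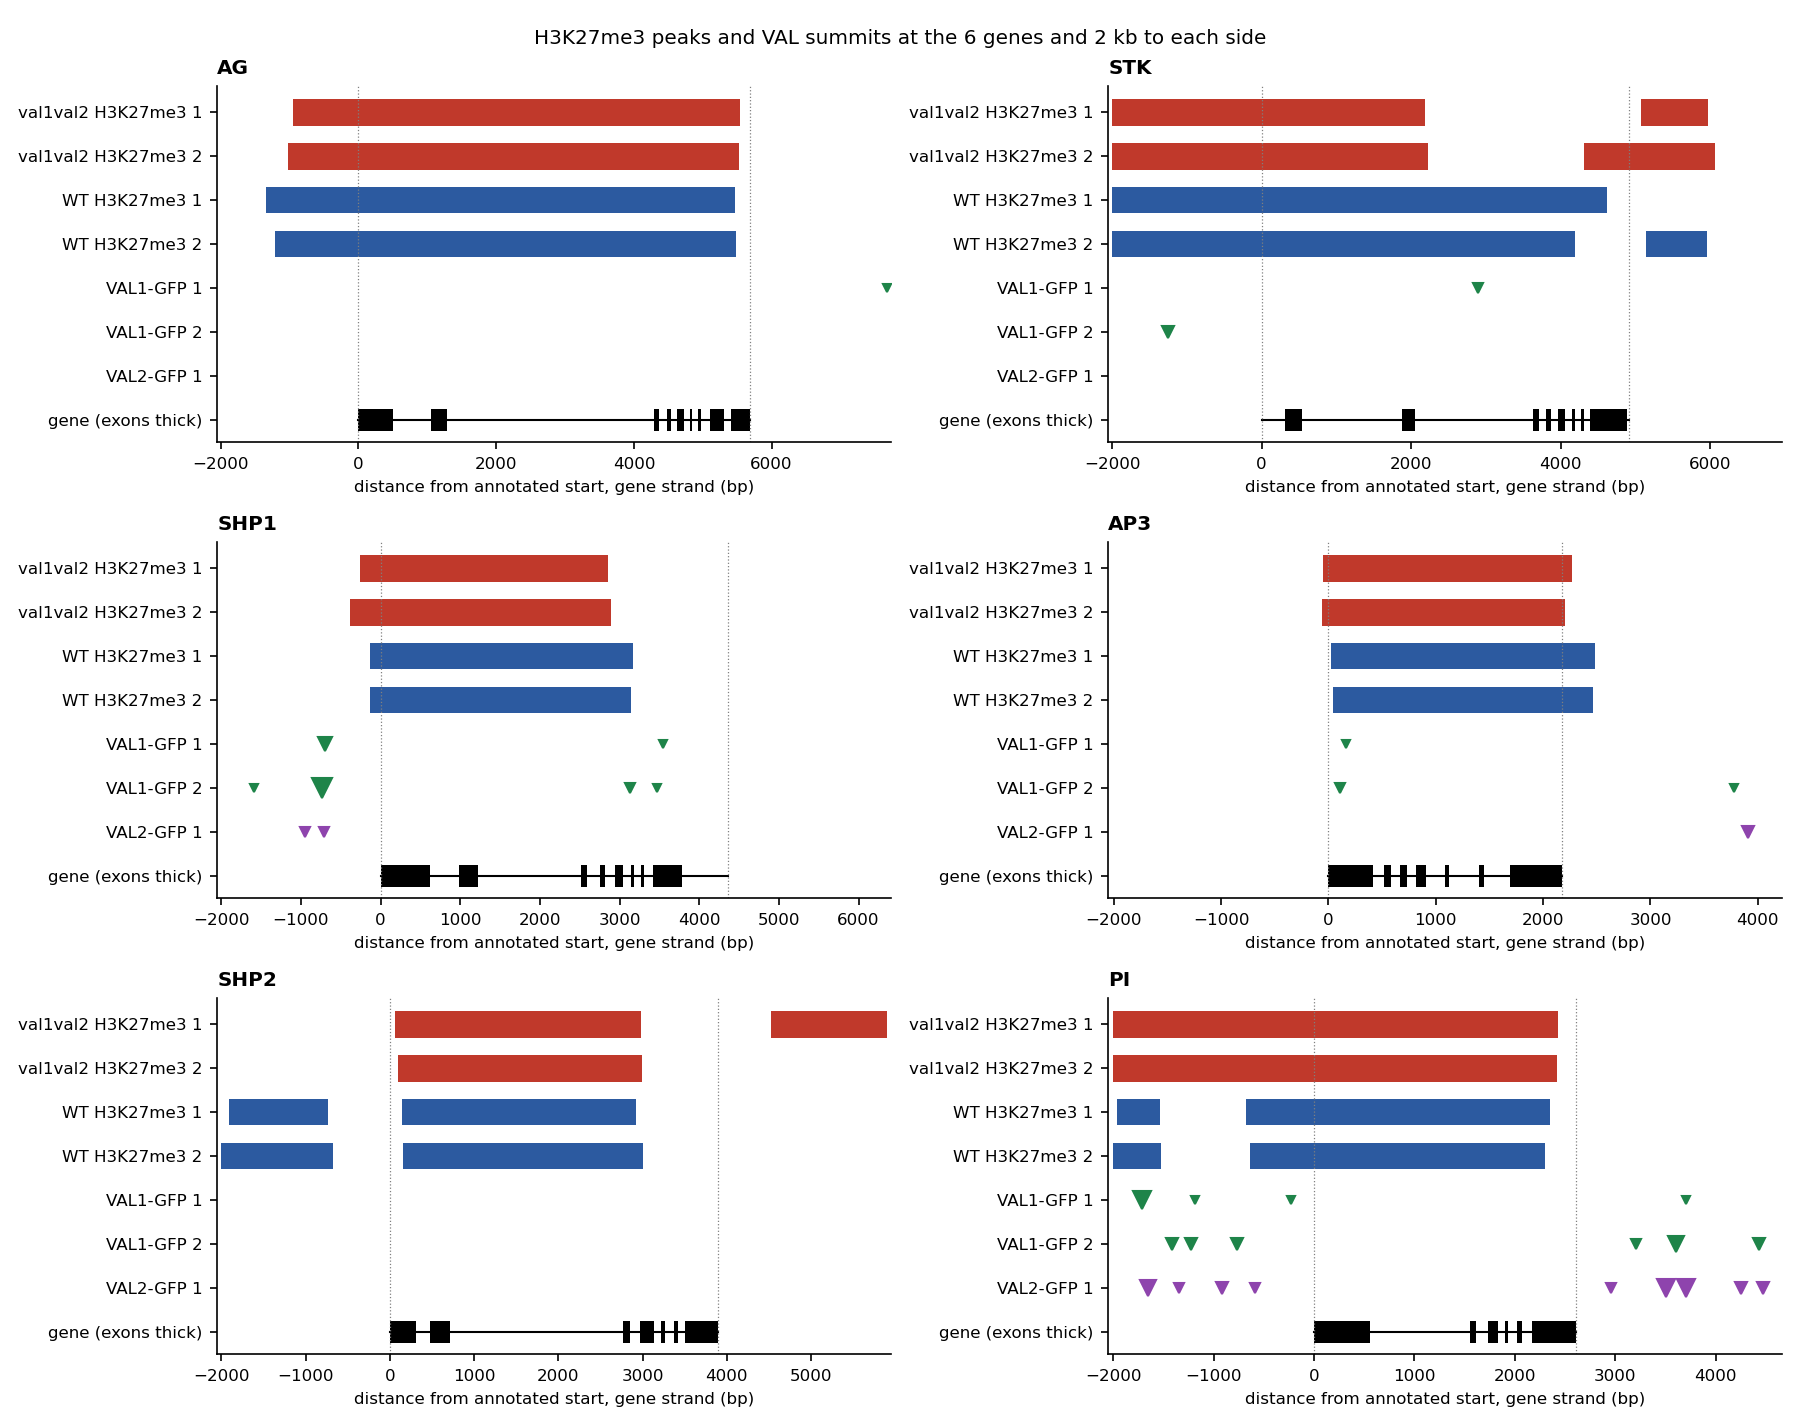
H3K27me3 peaks (bars: val1val2 red, WT blue) and summits of VAL1-GFP (green) and VAL2-GFP (purple triangles, larger for a higher −log10 q) at the 6 genes, by distance in bp from the annotated start on the gene's strand, cropped at 2 kb to each side. The val1val2 peak stops within STK and at PI joins the stretch between the 2 WT peaks, SHP2 lacks its upstream WT peak, and the peak of AG spans all of its long intron in each of the 4 libraries.

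AG lies on the plus strand at chr4:10382856-10388539 and has 9 exons. It was covered over 97.6% and 97.4% in val1val2 and over 96.2% and 96.5% in WT, as means 97.5% ± 0.149 and 96.4% ± 0.236 (SD, n = 2 each). A single peak did this in each library, 6502 and 6558 bp long in val1val2 and 6806 and 6695 bp long in WT. AG was thus marked almost from end to end in every library.

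The second intron of AG, of 2999 bp at chr4:10384147-10387145, holds its known regulatory region, with sites for LEAFY and WUSCHEL. It was covered over 100% of its length in all 4 libraries. The last exon, exon 9, was the least covered, with 49.1% and 44.6% in val1val2 and 20.3% and 27.3% in WT. The domain ended inside that exon in each library, slightly further downstream in val1val2.

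At its other end the AG domain was shorter in val1val2. The peak began 956 and 1024 bp upstream of the gene start in val1val2 and 1338 and 1208 bp upstream in WT, a difference in means of −283 bp. An edge was called shifted when the genotypes did not overlap and their means differed by at least 200 bp. Cover of the 2 kb upstream of AG was 47.8% and 51.2% in val1val2 against 66.9% and 60.4% in WT. Of the 6316 genes marked in all 4 lists, 22.2% had a 5′ edge drawn in by this rule, so a shift like that of AG was common.

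VAL binding near AG was weak or not listed. The only summit was in the first VAL1-GFP list, 1989 bp beyond the end and inside the next gene, AT4G18970, with −log10 q of 0.510, higher than 24.8% of the summits of that list. The second intron held no RY core (TGCATG or its complement CATGCA), a motif present in 68.5% of the 39726 windows of 2999 bp along the 5 chromosomes. It held 2 teloboxes (AAACCCTA or TAGGGTTT), which telomere repeat-binding factors recognise and which are known as Polycomb response sequences in Arabidopsis, and 30.6% of the windows held at least 1. It also held 3 GAGA repeats (GAGAGAGA or TCTCTCTC), the kind of sequence bound by BASIC PENTACYSTEINE proteins, and 37.2% of the windows held at least 1. Both telobox stretches are shown because they lie in the part of AG that stayed fully covered, at chr4:10384186-10384246 and chr4:10386669-10386729 on the plus strand of TAIR10.1, with the telobox in capitals.
AG intron 2, first telobox: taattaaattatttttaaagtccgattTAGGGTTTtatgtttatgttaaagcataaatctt
AG intron 2, second telobox: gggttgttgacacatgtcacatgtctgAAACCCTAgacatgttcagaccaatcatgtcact

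SHP1 lies on the plus strand at chr3:21738160-21742517, and the transcript used for its exons has 8 exons and ends at 21741941. SHP1 acts with SHP2 in the valve margin, where the fruit opens. Its cover was 65.6% and 66.4% in val1val2 and 72.8% and 72.1% in WT, as means 66.0% ± 0.617 and 72.4% ± 0.535 (SD, n = 2 each), a difference of −6.44 points. The genotypes did not overlap.

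The difference at SHP1 lay at the 3′ end of its domain. The peak stopped 1501 and 1463 bp before the end of the gene in val1val2 and 1185 and 1218 bp before it in WT. Exon 5 and intron 5 had no cover in val1val2 and full cover in WT, while everything from exon 1 to exon 4, with the long intron 2, was fully covered in all 4 libraries. Of genes marked in all 4 lists, 19.1% had a 3′ edge drawn in by 200 bp or more. At the other end the peak began 255 and 388 bp upstream of the start in val1val2 and 135 bp upstream in both WT lists, a difference of 186.5 bp that missed the 200 bp needed for a call.

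SHP1 had its strongest VAL1 summit at about the same place in both lists. It lay 699 bp upstream of the start in the first VAL1-GFP list (−log10 q of 5.202, above 88.4% of that list's summits) and 740 bp upstream in the second (−log10 q of 19.7, above 96.2%). VAL2-GFP had a weaker summit 708 bp upstream, with −log10 q of 2.10. These 3 summits lay within 41 bp of each other and outside every H3K27me3 peak, 311 bp or more from the nearest val1val2 peak edge and 564 bp or more from the nearest WT one. Weaker VAL1 summits lay in exon 8 in both lists, 3546 and 3465 bp from the start (−log10 q of 0.245 and 0.383), outside every H3K27me3 peak. The second list alone had a summit in intron 5, 3137 bp from the start (−log10 q of 1.38). It lay within both WT peaks and outside both val1val2 peaks, in the stretch where the genotypes differed. An RY core lay 13 bp from the summit 740 bp upstream in the second VAL1-GFP list, at chr3:21737402-21737407. The 101 bases around that summit are shown with the RY core in capitals (chr3:21737370-21737470, plus strand of TAIR10.1), since no other summit at the 6 genes had as high a −log10 q.
SHP1 upstream VAL1 site: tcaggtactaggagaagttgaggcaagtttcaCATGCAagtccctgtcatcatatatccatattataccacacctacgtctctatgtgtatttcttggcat

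SHP2 lies on the plus strand at chr2:17820114-17824013 and has 7 exons. Its cover was 74.9% and 74.5% in val1val2 and 71.4% and 72.9% in WT, as means 74.7% ± 0.344 and 72.2% ± 1.12 (SD, n = 2 each). The gene body peak covered intron 2, the longest at 2056 bp, completely in all 4 libraries and left exons 5, 6 and 7 bare in all 4. On the gene itself the domain was thus nearly the same in both genotypes, and neither edge was called shifted.

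The flanks of SHP2 differed more than its body. A separate upstream peak was present in both WT lists, at chr2:17818209-17819383 (−log10 q of 2.55) and chr2:17817931-17819444 (−log10 q of 3.37), and was listed in neither val1val2 library. Cover of the upstream 2 kb was 0% in both val1val2 libraries against 58.8% and 66.6% in WT. Lower upstream cover was seen at AG and SHP2 among the 6 genes, and at 29.4% of genes marked in all 4 lists. The WT peak also reached HVA22F (AT2G42820), the upstream neighbour, whose cover was 0% in both val1val2 libraries and 25.9% and 47.2% in WT, a lost gene by the rule above. On the other side, a peak downstream of the gene covered 68.6% of that 2 kb in val1val2 replicate 1 and was absent from the other 3 libraries, so it was not shared by the val1val2 replicates.

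SHP2 was the only 1 of the 6 with no VAL1 or VAL2 summit within 2 kb in any of the 3 lists, which was the case for 12.9% of all genes and 13.5% of genes marked in all 4 lists. The window nevertheless held 7 RY cores, with overlapping matches on the 2 strands counted separately.

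STK lies on the minus strand at chr4:6236375-6241281, and its transcript has 8 exons and begins at 6240973. STK specifies ovules together with the SHP genes and acts in the seed stalk. Its cover was 44.4% and 57.6% in val1val2 and 94.0% and 85.5% in WT, as means 51.0% ± 9.34 and 89.7% ± 6.04 (SD, n = 2 each), a difference of −38.7 points. This was the widest difference in gene cover among the 6 genes, and the genotypes did not overlap.

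The WT peak of STK was 8419 and 7983 bp long and spanned the promoter and nearly the whole gene, while the val1val2 peak was 6022 and 6088 bp long. Its 3′ edge lay 2727 and 2676 bp before the end of the gene in val1val2, against 294 and 713 bp before it in WT, so the strongest peak was drawn in by 2198 bp on average. Of genes marked in all 4 lists, 19.2% had the 3′ edge of their strongest peak drawn in by 200 bp or more, a share not limited to shifts as wide as at STK. Exons 1 and 2 and intron 1 stayed fully covered in all 4 libraries. Exons 3 to 6 were bare in both val1val2 libraries and fully covered in both WT libraries, and intron 2 had 7.99% and 11.2% cover in val1val2 against 100% in both WT libraries. At the very end of the gene the libraries of a genotype differed from each other. Exon 8 had 0% and 100% cover in val1val2 and 45.8% and 0% in WT, and intron 7 had 0% and 98.7% in val1val2 and 100% and 0% in WT. The stretch bare in both val1val2 lists and covered in both WT lists thus ran from within intron 2 to exon 6.

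Small weak peaks near the 3′ end of STK blurred its outer edge. They lay at chr4:6235307-6236209 and chr4:6235215-6236971 in val1val2 replicates 1 and 2 (−log10 q of 1.48 and 1.24) and at chr4:6235327-6236145 in WT replicate 2 (0.402). The one in val1val2 replicate 2 reached 597 bp into STK, so by the outermost peak on the gene the 3′ edge overlapped between the genotypes and was not called. The main STK peaks were themselves of modest significance, with −log10 q of 4.83 and 4.84 in val1val2 and 5.90 and 6.12 in WT. At −log10 q of at least 10 neither STK nor AG had a peak in either genotype, so their differences in cover became 0.

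The upstream side of STK was alike in both genotypes. The peak began 3842 and 3857 bp upstream of the start in val1val2 and 3806 and 3789 bp upstream in WT, and the upstream 2 kb were fully covered in all 4 libraries. The same peak touched AT4G09965, with 40.5% and 42.1% cover in val1val2 and 36.7% and 35.0% in WT. Downstream, the small peaks named above gave the 2 kb a cover of 45.2% and 58.0% in val1val2 against 0% and 41.0% in WT, higher without overlap at STK as at 21.2% of genes marked in all 4 lists.

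VAL1-GFP summits at STK were not at the same place in the 2 lists. The first list had 1 in intron 2, 2891 bp from the start (−log10 q of 1.14), in the stretch covered in WT and bare in val1val2. The second list had 1 at 1248 bp upstream (−log10 q of 3.74), within the peaks of all 4 libraries. No VAL2 summit lay within 2 kb. The intron site, at chr4:6238340-6238440, is shown on the minus strand of TAIR10.1 because it lies where the genotypes differ, and its RY core, in capitals, was 29 bp from the summit.
STK intron 2 VAL1 site: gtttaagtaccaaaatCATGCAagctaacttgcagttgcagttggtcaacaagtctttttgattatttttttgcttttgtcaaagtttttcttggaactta

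AP3 lies on the minus strand at chr3:20119140-20121314 and has 7 exons. It was covered over 100% in both val1val2 libraries and over 99.0% and 97.9% in WT, as means 100% and 98.4% ± 0.780 (SD, n = 2 each). The peak was compact, 2323 and 2266 bp long in val1val2 and 2458 and 2420 bp long in WT, and closely framed the gene. It ended 94 and 28 bp beyond the gene end in val1val2 and 305 and 291 bp beyond it in WT, a called shift of −237 bp, and cover of the downstream 2 kb was lower in val1val2 at AP3, as at 23.4% of genes marked in all 4 lists. On the 5′ side it began 54 and 63 bp upstream of the start in val1val2 and 22 and 46 bp inside the gene in WT. This difference of 92.5 bp missed the 200 bp needed for a call. Only the 3′ edge of AP3 was thus called shifted, and both neighbours, WRI1 and emb1967, were without peaks in all 4 libraries.

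AP3 had the highest fold enrichment of the 6 genes, a ratio over the local background given for a whole peak in the deposited lists. It was 3.67 and 3.69 in val1val2 and 3.57 and 3.66 in WT, above that of 96.1% of genes marked in val1val2 and 93.6% of genes marked in WT. VAL1 summits lay in the untranslated part of exon 1, 160 bp from the start in the first list (−log10 q of 0.340) and 112 bp from it in the second (2.34), within the H3K27me3 peak of all 4 libraries. VAL2 had no summit there but had 1 at 1731 bp beyond the end, inside WRI1 (−log10 q of 3.18). The second VAL1-GFP list also had a weak summit inside WRI1, 1603 bp beyond the end of AP3 (−log10 q of 0.387). No RY core lay within 100 bp of these summits. The 29 bases next to the exon 1 summit of the second VAL1-GFP list are shown for the GAGA repeat they hold, in capitals (chr3:20121174-20121202, minus strand of TAIR10.1). A GAGA repeat lay within 100 bp of 7.30% of the VAL1 summits shared by both lists and in 3.19% of windows of the same length 1 kb away.
AP3 exon 1 VAL1 site: ctttacttcttcaactccaTCTCTCTCtt

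PI lies on the plus strand at chr5:6828904-6831515 and has 6 exons. Its cover was 93.1% and 92.7% in val1val2 and 90.0% and 88.1% in WT, as means 92.9% ± 0.271 and 89.1% ± 1.41 (SD, n = 2 each). The difference of 3.83 points was the widest of the 4 genes with higher cover, and the larger difference at PI lay upstream.

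In val1val2 a single PI peak of 4665 and 4688 bp began 2234 and 2267 bp upstream of the start. In WT the peak on PI was 3033 and 2943 bp long and began 681 and 643 bp upstream, and a separate small peak of 421 and 509 bp lay further out, with −log10 q of 1.20 and 1.29. The edge lay 1588.5 bp further upstream in val1val2 on average, and 15.7% of genes marked in all 4 lists had a 5′ edge extended by 200 bp or more. That share counts every extension from 200 bp up, not only those as wide as at PI. Cover of the upstream 2 kb was 100% in both val1val2 libraries and 55.1% and 55.9% in WT. Higher upstream cover was seen at SHP1, AP3 and PI among the 6 genes and at 21.9% of genes marked in all 4 lists. The stretch between the 2 WT peaks was 857 and 882 bp long. With peaks up to 1000 bp apart joined, an alternative chosen after seeing the data, the WT edge moved out to 1959 and 2034 bp upstream and the extension in val1val2 shrank to 254 bp, still without overlap. The genotypes thus differed mainly in whether the stretch between the WT peaks was called, and little in the outermost reach of the mark. The upstream neighbour BCB (AT5G20230), a gene for a blue copper-binding protein, had 78.0% and 80.3% cover in val1val2 and 30.4% and 36.8% in WT, so the longer domain reached into it.

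**Figure D2:**
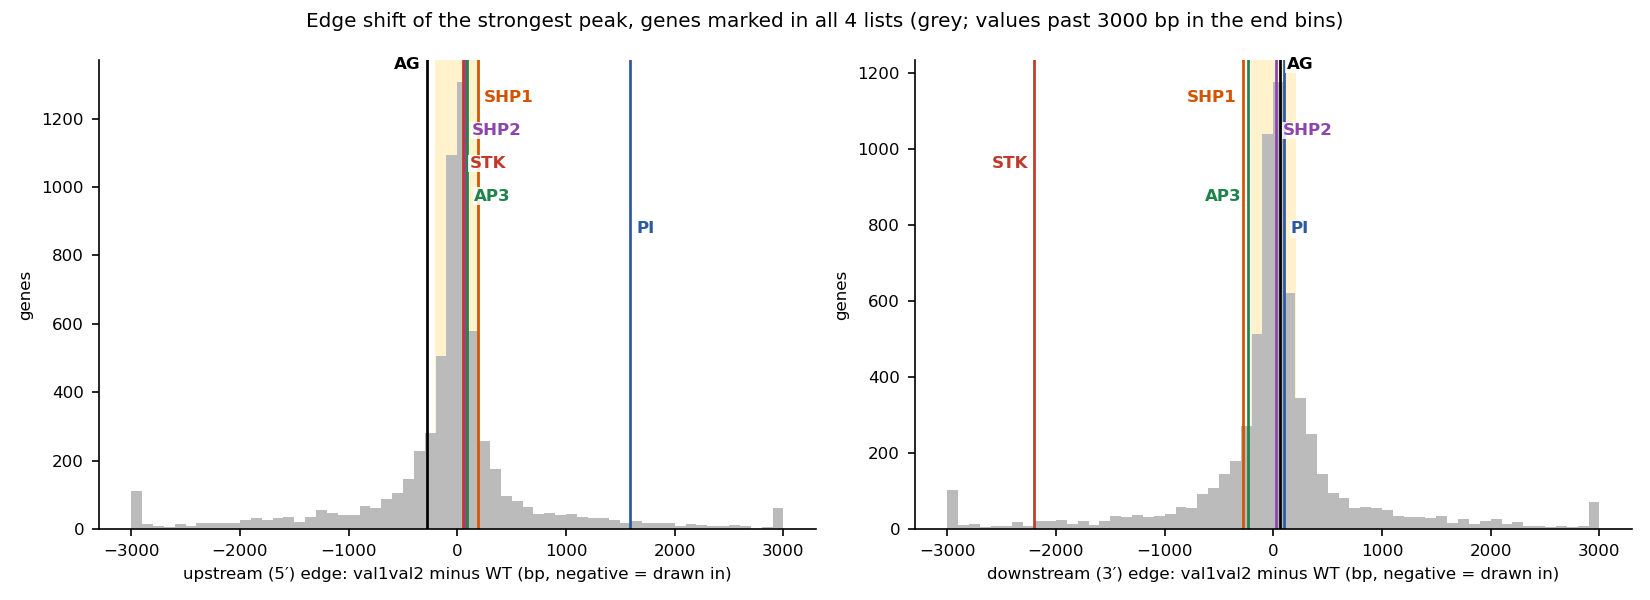
Shift of the 5′ edge (left) and 3′ edge (right) of the strongest peak, val1val2 minus WT means in bp, for the 6316 genes marked in all 4 lists (grey histogram, genes per 100 bp bin, values past 3000 bp put in the end bins) and for the 6 genes (lines), with shifts under 200 bp shaded. PI stands at 1588.5 bp on the 5′ side and STK at −2198 bp on the 3′ side, and the other shifts lie between −283 and 186.5 bp.

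PI had the most VAL summits of the 6 genes, 4 and 6 in the VAL1-GFP lists and 9 in the VAL2-GFP list. The strongest upstream ones lay 1715 bp from the start in the first VAL1-GFP list (−log10 q of 9.48, above 93.6% of that list) and 1658 bp from it for VAL2 (7.79), both inside BCB. The second VAL1-GFP list had upstream summits at 1418, 1228 and 768 bp, with −log10 q of 4.51, 4.10 and 2.95. These 3 lay between the 2 WT peaks, in the stretch without a called peak in WT and within the peak in val1val2. The VAL2 summits at 1349 and 921 bp lay there too, as did a weak summit of the first VAL1-GFP list at 1183 bp (−log10 q of 0.549). Downstream, VAL2 had its 2 strongest summits, 892 and 1098 bp beyond the end (−log10 q of 9.54 and 10.7), and the second VAL1-GFP list had 1 at 995 bp (7.45). No H3K27me3 peak reached the downstream 2 kb of PI in any library.

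An RY core lay 41 bp from the stronger downstream VAL2 summit of PI, and none lay within 100 bp of the upstream summits. Both VAL2 windows are shown as the strongest VAL2 sites on the 2 sides of the gene, at chr5:6827196-6827296 and chr5:6832563-6832663 on the plus strand of TAIR10.1, with the RY core in capitals.
PI upstream VAL2 site: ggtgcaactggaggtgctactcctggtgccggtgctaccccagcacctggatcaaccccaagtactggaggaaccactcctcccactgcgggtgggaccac
PI downstream VAL2 site: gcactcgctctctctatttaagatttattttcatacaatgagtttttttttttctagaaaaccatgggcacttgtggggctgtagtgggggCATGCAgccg

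Over the 6 genes, VAL1 had a summit within 2 kb in both lists at SHP1, STK, AP3 and PI (4 of 6, against 58.4% of all genes), and VAL2 had 1 at SHP1, AP3 and PI (3 of 6, against 70.8%). Among genes marked in all 4 lists those shares were 63.1% for VAL1 and 67.0% for VAL2, and 51.3% of all genes had both factors, as SHP1, AP3 and PI did. Where the summits of both VAL1-GFP lists had to lie within 200 bp of each other, SHP1, AP3 and PI remained, against 48.9% of all genes. With summits of −log10 q of at least 2 in both lists, SHP1 and PI remained for VAL1 (27.7% of all genes), and at 10 or more none did (6.66%). For VAL2 the 3 genes remained at 2 or more (51.2%), and PI alone at 10 or more (13.1%). At the deposited threshold these counts are near the shares of all genes, and the VAL2 calls rest on 1 list. RY cores lay within 100 bp of 41.2% of the 13805 VAL1 summits shared by both lists, in 8.48% of windows 1 kb to each side, and within 100 bp of 18.5% of VAL2 summits.

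The strength of the H3K27me3 peaks was compared by fold enrichment and by pileup, the deposited read coverage of a peak. AG and STK, with the longest peaks, had the lowest fold enrichments. AG had 1.37 in both val1val2 libraries and 1.35 in both WT libraries, above that of 3.43% of marked genes in val1val2 and 3.02% in WT. STK had 1.43 in both val1val2 libraries and 1.42 and 1.41 in WT. By pileup the order was different: AG had the highest of the 6, with 189 and 193 in val1val2 and 237 and 256 in WT, above that of 99.4% of marked genes in val1val2 and 99.7% in WT. The background implied by these values, pileup divided by fold enrichment, was 138 and 141 at AG in val1val2 and 175 and 190 in WT, against 38.8 and 40.2 at AP3 in val1val2 and 49.1 and 52.4 in WT. By its definition, a low fold enrichment beside a high pileup, as at AG and STK, gives a high implied background. In all 4 libraries peaks of 6 kb or more had a median implied background above that of shorter classes. In WT replicate 1 it was 94.2, against 28.5 for peaks of 1 to 3 kb. The part of the background estimate in these values was not tested.

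**Figure D3:**
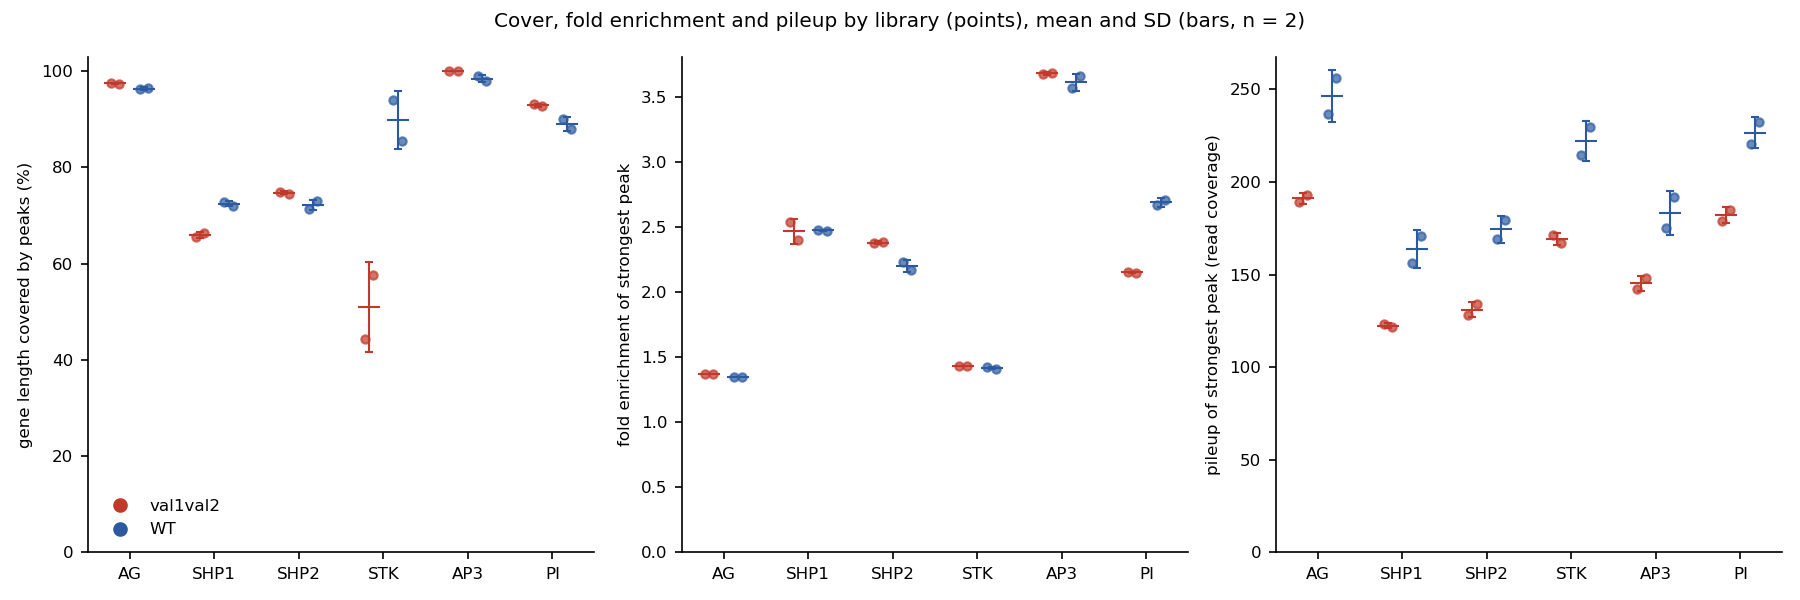
Gene cover in percent (left), fold enrichment of the strongest peak (middle) and pileup of the strongest peak (right) for the 6 genes, with 1 point per library (val1val2 red, left of WT blue) and bars for mean and SD (n = 2). Cover differs most at STK, fold enrichment at PI, and pileup is lower in val1val2 at all 6 genes.

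Between the genotypes, fold enrichment was higher in val1val2 at AG, SHP2, STK and AP3 (4 of 6, against 41.2% of genes marked in all 4 lists), by ratios of 1.01 to 1.08. It was 2.37 and 2.39 in val1val2 and 2.23 and 2.17 in WT at SHP2. At SHP1 it was 2.54 and 2.40 in val1val2 and 2.48 and 2.47 in WT, and the genotypes overlapped. Without val1val2 replicate 1 SHP1 also counted as lower, which makes 2 genes in place of 1. Without val1val2 replicate 2 SHP1 counted as higher instead, which makes 5 genes in place of 4. PI alone was lower, with 2.16 and 2.15 in val1val2 against 2.67 and 2.71 in WT, and 39.8% of genes marked in all 4 lists were lower. The values of PI belong to a longer region in val1val2, which takes in the upstream stretch that WT lists left out, so they do not compare the same bases. The implied background of PI was 83.0 and 86.1 in val1val2 and 82.8 and 85.8 in WT. At the other 5 genes it was lower in val1val2, by ratios of 0.694 to 0.778. Among genes marked in all 4 lists, 949 had a WT pileup at least that of the lowest of the 6. Their median ratio of implied background was 0.799, so a lower value was common among strongly covered genes. That choice by WT pileup may by itself favour lower values in val1val2.

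Pileup gave another picture, since it was lower in val1val2 at all 6 genes and higher at none, against 47.2% of genes marked in all 4 lists lower and 37.4% higher. SHP1 had 123 and 121 in val1val2 against 157 and 171 in WT, and SHP2 had 128 and 134 against 169 and 180. STK had 171 and 167 in val1val2 against 214 and 230 in WT, and AP3 had 142 and 148 against 175 and 192. PI had 179 and 185 in val1val2 against 221 and 232 in WT. The ratio of val1val2 to WT lay between 0.747 and 0.803 at the 6 genes, and dividing by each library's median over marked genes left all 6 lower and none higher, against 49.4% and 40.3%. Other strongly covered genes were often lower too: of the 1195 genes whose pileup averaged over the 4 libraries was at least that of the lowest of the 6, 74.9% were lower in val1val2, with a median ratio of 0.864 (quartiles 0.794 and 0.946). When genes were instead chosen by their WT pileup alone, a choice that by itself favours lower values in val1val2, 92.0% of 949 were lower.

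**Figure D4:**
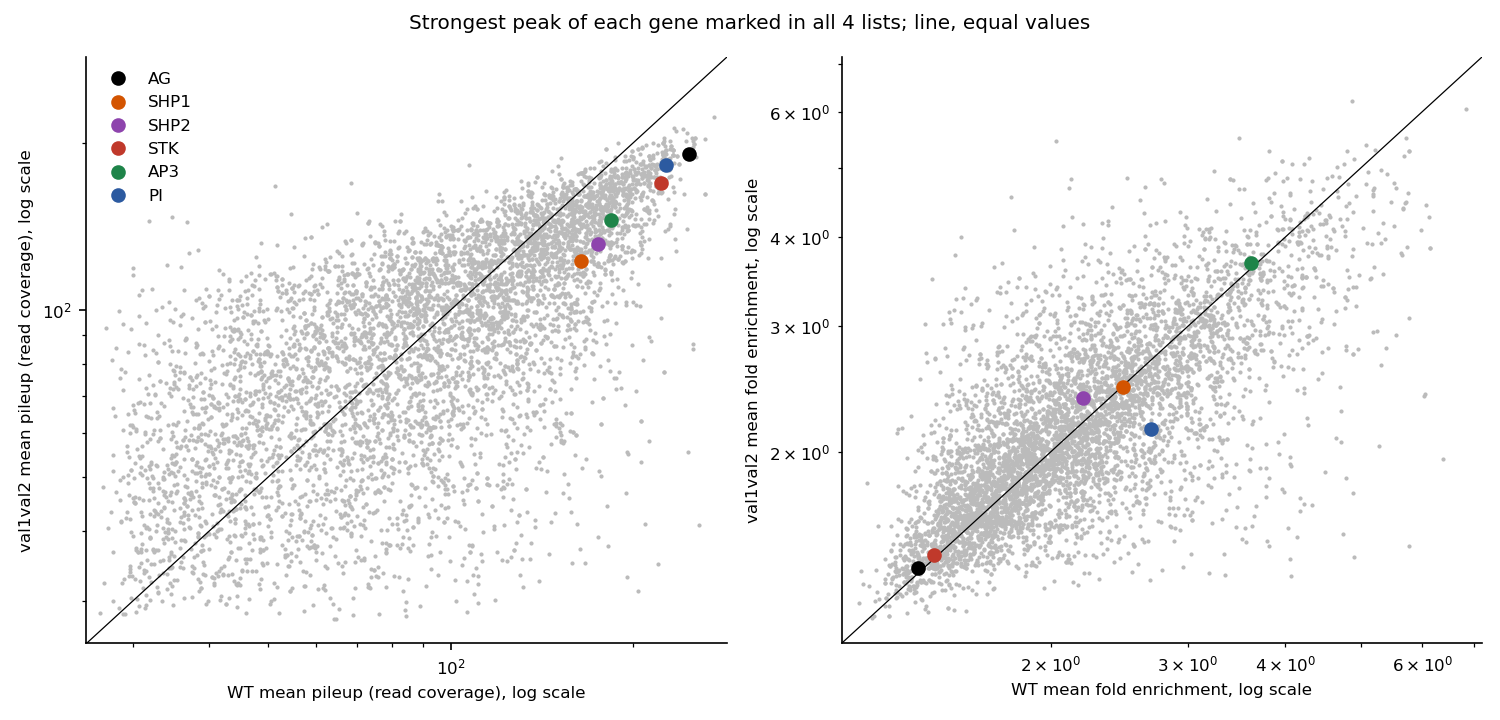
Mean pileup (left) and mean fold enrichment (right) of the strongest peak in val1val2 (y axis) against WT (x axis), both axes on a log scale, for the 6316 genes marked in all 4 lists (grey) and the 6 genes (coloured), with the line of equal values. In pileup the 6 genes lie under the line. In fold enrichment PI lies under it, and SHP1 lies slightly under it (2.467 in val1val2 against 2.475 in WT), though its genotypes overlapped.

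Across the 6 genes the order of −log10 q in WT was that of fold enrichment, with AP3 highest and AG lowest. Between the genotypes the −log10 q of the strongest peak was lower in val1val2 at all 6 genes and higher at none, against 43.3% of genes marked in all 4 lists lower and 39.1% higher. AP3 had 40.0 and 41.2 in val1val2 and 46.6 and 52.3 in WT, and PI had 20.5 and 20.7 in val1val2 and 37.6 and 40.7 in WT. SHP1 had 22.2 and 20.1 in val1val2 and 26.2 and 28.0 in WT, and SHP2 had 19.2 and 20.3 in val1val2 and 21.2 in both WT libraries. AP3 and PI thus had the most significant WT peaks of the 6 and AG the least, with 4.15 and 4.27 in val1val2 and 4.54 and 4.86 in WT.

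The likeness of the genes was described by the Euclidean distance over 8 values, the cover fraction and the log2 fold enrichment in each of the 4 libraries. SHP1 and SHP2, which act redundantly, were the nearest pair of the 6 at 0.288, and AG and AP3 the farthest at 2.84. Among the other 6315 genes marked in all 4 lists, AG was nearest to ABCA6 (0.0486) and TCP1 (0.0704), SHP1 to AT3G59120 (0.0852) and BSU1 (0.107), and SHP2 to AT1G64290 (0.0879) and AT3G59710 (0.135). STK was nearest to AT1G65483 (0.188) and AT3G10470 (0.218), AP3 to RPL12-B (0.0754) and AT4G16545 (0.0761), and PI to SNZ (0.121) and BCAT7 (0.123). STK had the most distant neighbours of the 6. None of these 12 genes is 1 of the 6.

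Other genes of the floral pathway were set beside the 6, in 3 lists with 43 members. Of these 31 were marked in all 4 lists (23.0% of all genes were). None of the 31 marked in WT was lost (7.92% of all genes marked in WT). Of those unmarked in WT, 1 was gained and 11 stayed unmarked (8.82% of all genes unmarked in WT were gained). These calls depended on the peak threshold: with a −log10 q minimum of 10, AP1, FUL, SEP3, SAP, CRC and IND were lost, BEL1, ANT and JAG were gained, and ALC was not. Over all genes, 821 were lost and 903 gained with that minimum, in place of 556 and 1763. By the deposited lists all 10 partner MADS-box genes, among them AP1 and the SEPALLATA genes, were marked in both genotypes, and 3 of them had higher cover in val1val2 and none lower. Of 18 regulators of AG, AP3 and PI, 10 were marked in both genotypes and 8 in neither, with 4 higher and 1 lower in val1val2. Of 15 genes downstream, 11 were marked in both genotypes, with 3 higher and 2 lower in val1val2. Among the 43 genes the 3 with lower cover were ULT1, SPT and JAG, and 10 had higher cover. Of the 6316 genes marked in all 4 lists, 22.0% were lower and 32.4% higher in the same way. SPT and ALC, counted here, are not among the genes marked in all 4 lists.

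Of the other floral genes 2 differed by 20 points or more, and 1 of these was gained. BEL1, a homeobox gene that limits AG in ovules, had 84.1% and 85.4% cover in val1val2 and 46.1% and 52.1% in WT, as means 84.8% ± 0.871 and 49.1% ± 4.23 (SD, n = 2 each). ALC, a fruit-opening gene that acts downstream of the SHP genes, had a mean of 26.5% in val1val2 and 0% in both WT libraries, and was the gained gene. VAL1 had summits within 2 kb in both lists at 22 of the 43 genes and VAL2 at 33, near the shares over all genes of 58.4% and 70.8%. A difference as wide as that of STK in the lower direction was not seen in these lists.

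**Figure D5:**
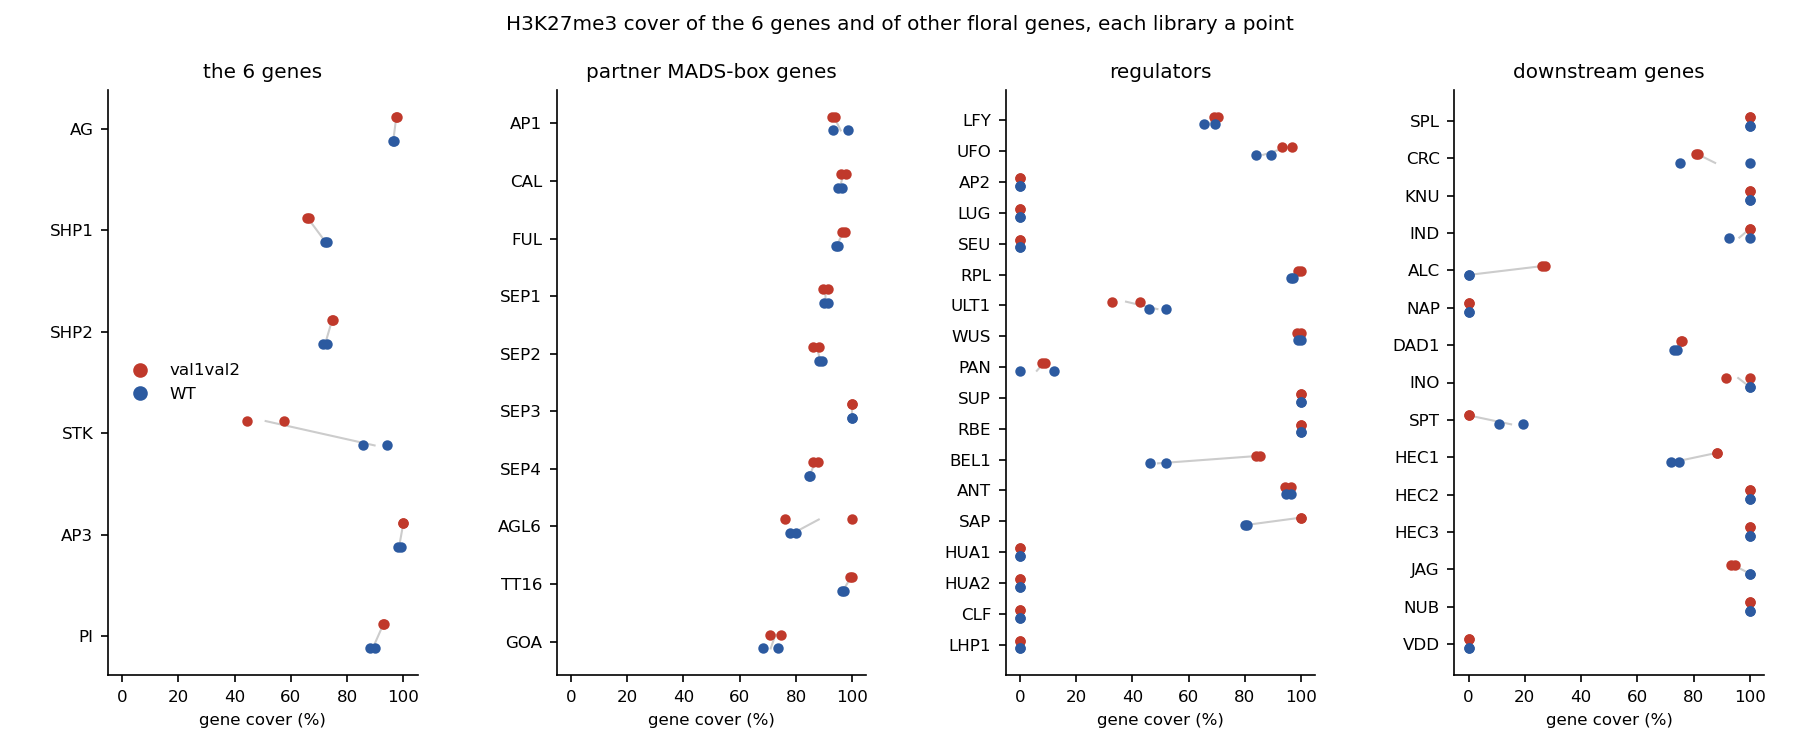
Cover of each gene in percent (x axis) for the 6 genes and the 3 lists of other floral genes (rows), with 1 point per library, val1val2 in red above WT in blue, and a grey line between the means. STK shows the widest gap with val1val2 to the left, and BEL1 and ALC lie with val1val2 to the right.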

How the data were processed

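The analysis used 7 peak lists: H3K27me3 in val1val2 and WT (2 each), VAL1-GFP (2) and VAL2-GFP (1). The second VAL2-GFP list and RNA-seq were not analysed here. The authors called peaks sample by sample with MACS2 on TAIR10, per the submitters' processing notes, which also name TopHat2 2.1.1 and Cufflinks 2.2.1. Control, aligner and settings were not given in the sources used. Pileup, as deposited, is a read coverage signal, and fold enrichment, as deposited, is a ratio to local background. Both belong to whole peaks. The deposited −log10 columns for p and q had spoiled headers and were told apart by their order in MACS2 output. The H3K27me3 lists hold broad regions and the GFP lists summits. Depth is unknown, so no interval is given.

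Peaks were matched to genes of the TAIR10.1 RefSeq annotation, from whose genome all sequences were read. Cover was the merged peak length over the gene, the strongest peak was the one with the highest fold enrichment, and edges were those of the outermost peaks touching the gene unless the strongest peak is named. No base of the 6 genes lay in a word of 50 bp repeated elsewhere on the 5 chromosomes. Calls rest on overlap between 2 and 2 libraries, with no p. The 6 genes and the floral lists were chosen with earlier results of these data known. Named genes were the 6 genes, floral genes lost, gained or differing by 20 points or more, genes under the same WT peak, and the 2 nearest profiles of each. Neighbours within 2 kb and the 3 floral genes with lower cover were named after their values were seen. The strongest-peak edge, the 200 bp rule for VAL1 summits, the comparisons with genes of high pileup, joining up to 1000 bp and some floral settings were also added after seeing the data. Interval steps were tested on simulated peaks. Python 3.11.15, numpy 2.4.6 and pandas 2.3.3 were used.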

Additional observations from a re-analysis of the deposited data

How the results depend on the processing

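All 6 genes stayed marked in both genotypes with a −log10 q minimum of 2, with each list reduced to its 8324 most significant peaks and without each library in turn, and none was lost or gained in any setting run. With a −log10 q minimum of 10 AG and STK were unmarked and 4 were marked in each genotype, and with 50% cover needed 5 were marked in val1val2. With that same minimum of 10 the genes with lower cover were 1 in place of 2, and the cover differences of AG and STK became 0. Over the whole genome 821 genes were then lost in place of 556, and 903 were gained in place of 1763. The cover difference of STK ranged from −32.1 to −45.3 points without each library in turn and was −44.8 both with a −log10 q minimum of 2 and with lists of equal length. Of the other floral genes 1 was lost with that minimum of 2 (ULT1) and 6 with a minimum of 10, in place of 0, and 3 were gained with a minimum of 10, in place of 1. With the minimum of 2, 670 genes were lost over the whole genome. Shifted edges were 4, ranged from 4 to 6 without each library in turn, and were 1 at 500 bp or more (PI) or 2 at that size with the strongest peak alone (PI and STK). Joining peaks up to 500 bp apart could not close the gap upstream of PI, and joining up to 1000 bp gave 5, with the 5′ edge of SHP2 added at −2124 bp and that of PI at 254 bp in place of 1588.5. The 5′ edge difference of AG became −1479.5 bp in place of −283 with that joining. At AG only WT replicate 1 moved, to 3731 bp upstream, while WT replicate 2 stayed at 1208 bp. By pileup, deposited or divided by the library median, 6 peaks were lower and 0 higher in val1val2, in place of 1 and 4 by fold enrichment. Leaving out each library gave 1 to 2 lower and 4 to 5 higher. VAL1 was at 2 genes with summits of −log10 q of at least 2 and at 0 with 10 or more, and VAL2 at 1 with 10 or more; each VAL1-GFP list alone gave 4 to 5. The cause of these differences was not tested. No paired analysis was possible because the results come from no test. Within replicate numbers 1 and 2, the cover difference of STK was −49.6 and −27.8 points. With 2 libraries per genotype, 1 VAL2-GFP list and unknown depth, small shifts of an edge cannot be told apart from differences in peak calling.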

Other observations

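Telobox and GAGA matches were counted in each gene and the 2 kb to each side. AG held 5 teloboxes and 5 GAGA repeats, SHP1 3 and 8, STK 3 and 4, AP3 4 and 5, PI 1 and 3, and SHP2 1 and 1, with overlapping matches counted separately. In SHP1 all 3 teloboxes lay in intron 2, which stayed fully covered by H3K27me3 in all 4 libraries. RY cores numbered 3 at AG, 6 at SHP1, 7 at SHP2, 4 at STK, 4 at AP3 and 6 at PI. SHP2, which has no VAL summit within 2 kb, thus had 7 matches, with overlapping matches on the 2 strands counted separately. Its lead over PI, with 6, rests on such an overlapping pair, and a match of letters alone is not a site.

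AT4G09950, which overlaps the 3′ end of STK on the other strand, had 47.8% and 71.2% cover in val1val2 and 0% and 43.3% in WT, so the genotypes did not overlap, but WT replicate 2 was close to val1val2 replicate 1. GAUT15, which overlaps the 3′ end of SHP1, had no cover in val1val2 and 12.6% and 13.6% in WT. The WT peak on SHP1 did not touch GAUT15. This WT cover lay beyond the 2 kb downstream of SHP1, a stretch with 0% cover in all 4 libraries.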
